A study of Mus musculus with 10 samples.

Results

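The mitochondrial protein import machinery was followed in Lin- bone marrow cells, the immature fraction left after depletion of mature blood lineages. Members were the protein-coding genes with a symbol starting with Tomm or Timm followed by a digit or the letter d, together with Samm50, Mtx1, Mtx2, Pam16, Dnajc19, Grpel1, Grpel2, Hspa9, Chchd4 and Gfer. The rule used names only, and found 36 of the 55359 genes in the table. Of these, 35 passed the filter of a mean of at least 0.1 FPKM (fragments per kilobase of transcript per set number of sequenced fragments) over all libraries. The only member not tested, Timm8a2, was listed at 0.07 FPKM in WT 3 and 0.08 FPKM in cKO 1, about 1 fragment each, and at 0 elsewhere.

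The 10 RNA-seq libraries came from mouse bone marrow of 2 genotypes, 5 libraries each. All mice carried floxed Dhx9 alleles, Dhx9 being the gene for a DNA and RNA helicase. Dhx9f/f animals without Cre are called WT, and Dhx9f/f;MX1 animals are called cKO. MX1-Cre is driven by an interferon-responsive promoter that is switched on by injected poly(I:C) and acts in many cell types beyond blood. The study's methods give 3 injections on alternate days to MX1-Cre mice, with analysis 7 days after the first as the default, and say that sex was randomized. Whether the sequenced WT mice also received poly(I:C), and the age of these animals, are not given in the sources used here. Cre and the deletion come together in cKO and cannot be told apart. The same holds for poly(I:C) if the WT mice did not receive it. The methods define n in general as biological replicates from individual mice; the labels do not say so for the numbered libraries, and if any share an animal, p-values measure only the spread between these samples.

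Most mitochondrial proteins are made in the cytosol and imported. The TOM complex of the outer membrane is the common gate, with receptors that bind precursors and a channel that passes them. From there the SAM complex inserts barrel-shaped proteins into the outer membrane, the MIA pathway traps small cysteine-rich proteins in the intermembrane space by forming disulfide bonds, the small TIM chaperones escort hydrophobic carriers to the TIM22 complex, and the TIM23 complex with its PAM motor pulls precursors with a cleavable presequence into the matrix. Erythroid precursors import the mitochondrial enzymes of heme synthesis by these routes.

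Library depth, recovered from the steps of low FPKM values, ran from 13789970 fragments in cKO 1 to 18586612. Dhx9 itself was listed at 65.43 to 72.42 FPKM in WT and 130.82 to 156.49 FPKM in cKO, 2.01-fold higher in cKO (limma adjusted p = 1.4e-05), opposite to the label. The value covers the whole gene and does not separate the deleted exons, so it checks neither the deletion nor the labels, and every direction below is between libraries as labelled. The study reports reduced Dhx9 in bone marrow cells of Dhx9f/f;MX1 mice by qRT-PCR and western blot. Whether those assays used the sequenced animals is not given in the sources used here. Xist was at 99.19 to 127.76 FPKM in WT 3, WT 4 and WT 5 and at most 0.09 FPKM in the other 7 libraries, while the Y-linked Ddx3y was at 19.66 FPKM or more in those 7 libraries and at most 0.05 FPKM in WT 3 to WT 5. All libraries with high Xist are thus WT. The labels do not give sex. Read as sex markers, these genes place female cells only in WT, so that sex and genotype are partly confounded. The summed level of 16 erythroid markers was 1756 to 3127 FPKM in WT and 5033 to 8416 FPKM in cKO, with 15 of 16 called higher. Summed levels of 16 monocyte and dendritic cell markers were 952 to 1653 FPKM in WT and 9.15 to 295 FPKM in cKO, and those of 9 stem and progenitor markers 198 to 269 FPKM in WT and 98.2 to 145 FPKM in cKO. The progenitor marker Kit, at 36.56 to 54.36 FPKM in WT and 18.73 to 31.11 FPKM in cKO, was present in every library. No listed marker of any cell type was at 0 in all 10 libraries, and in bulk samples fewer cells of a type and less RNA per cell cannot be told apart. The part of cell composition in the results below was not tested.

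Between labels, 19 of the 35 members tested were higher in the libraries labelled cKO, 1 was lower and 15 were not called (limma on log2(FPKM + 0.1), Benjamini-Hochberg adjusted p under 0.05 over all genes tested). The shares over all 18742 genes were 16.7% higher and 28.3% lower. The median log2 fold change was 0.32 over the members and -0.11 over all genes tested, and 26 of the 35 members had a value above 0. The changes were small: with a fold of at least 2 required as well, 1 member was higher and 0 were lower, against 4.6% and 16.8% of all genes. That member, Tomm20l, was at 0 in every WT library and passed the filter only through its few cKO fragments. Without it, 18 of 34 members were called higher and 0 passed the fold. The median over the members was 0.29 with a filter at a mean of 1 FPKM, which leaves Tomm20l out. For 8 members every cKO library lay above every WT library and for 1 member below, against 10.6% and 21.6% of all genes. Restricted to the 7 libraries with low Xist (2 WT and 5 cKO), 11 members were called higher and 1 lower, and the shares over all genes fell as well, to 8.81% higher and 17% lower.

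**Figure D1:**
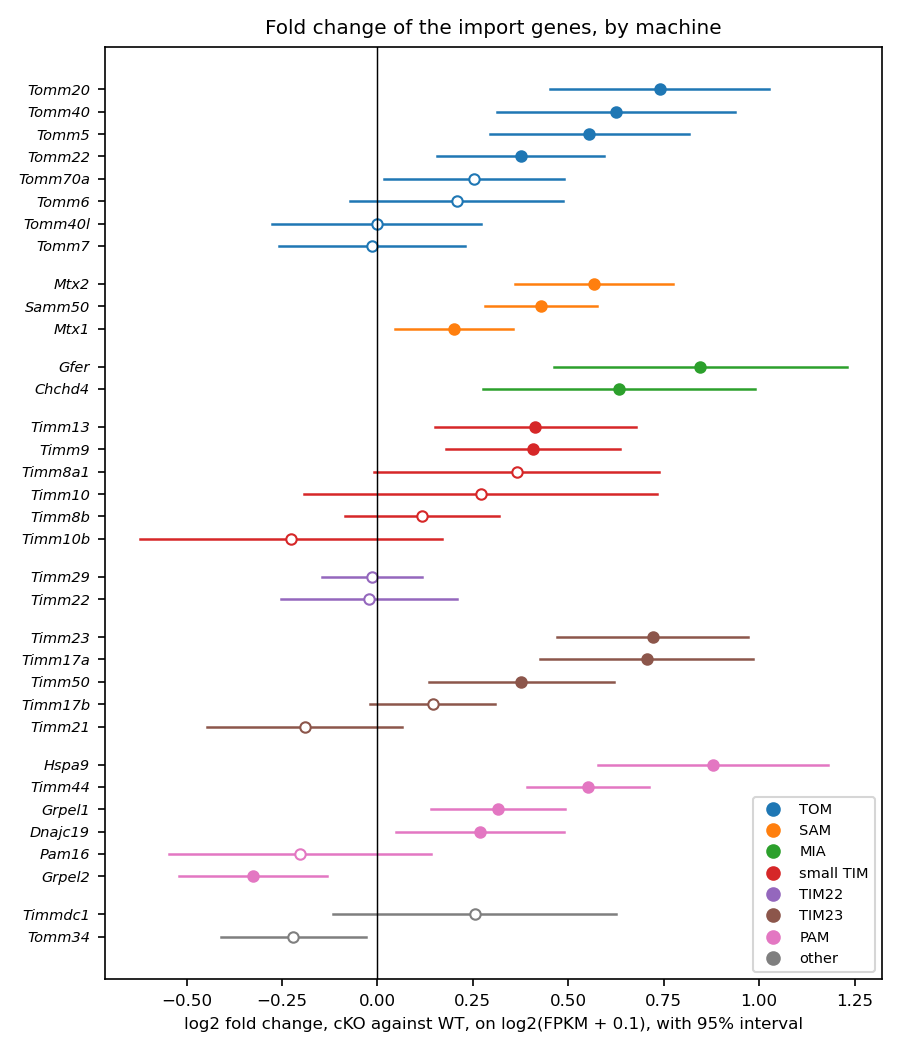
Log2 fold change of each import gene (x axis, cKO against WT on log2(FPKM + 0.1)) with its 95% confidence interval, grouped and coloured by machine. Filled points passed adjusted p under 0.05 and open points did not; Tomm20l and Timm8a2 are not drawn. Most points lie right of 0, both TIM22 genes lie at 0, and Grpel2 is the filled point on the left.

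In the TOM complex, 5 of 9 genes were called higher, among them the receptors Tomm20 and Tomm22 and the channel Tomm40, while the receptor Tomm70a was not called. The 5 include Tomm20l, which passed the filter only through its few cKO fragments. Tomm20, the receptor for precursors with a presequence (chr8:127657416-127672690, minus strand, GRCm39), was at 25.34, 27.74, 31.76, 29.22 and 27.80 FPKM in WT 1 to 5 and at 39.82, 50.17, 45.56, 65.34 and 39.77 FPKM in cKO 1 to 5. All cKO libraries were above all WT libraries, and the log2 fold change was 0.74 (SE 0.13; adjusted p = 0.00099). Tomm22, the receptor that joins the other subunits, averaged 61.7 ± 8.66 FPKM in WT and 79.7 ± 6.21 FPKM in cKO (SD, n = 5 each), with cKO 1 inside the WT range. Its log2 fold change was 0.38 (limma adjusted p = 0.010). Tomm70a, the receptor for carriers and other internal-signal precursors, was at 26.4 ± 2.79 FPKM in WT and 31.5 ± 4.24 FPKM in cKO and was not called (limma adjusted p = 0.077).

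Tomm40 forms the channel of the outer membrane. It was at 16.67, 24.08, 26.40, 20.91 and 18.14 FPKM in WT 1 to 5 and at 26.88, 36.83, 37.32, 28.45 and 33.64 FPKM in cKO 1 to 5. The groups did not overlap, although the highest WT library and the lowest cKO library lay close, and the log2 fold change was 0.62 (SE 0.14; adjusted p = 0.0043). Its relative Tomm40l was at 3.16, 3.39, 3.49, 2.98 and 2.86 FPKM in WT and at 2.52, 3.53, 3.43, 3.08 and 3.36 FPKM in cKO, with a log2 fold change of 0.00 and a 95% interval of -0.28 to 0.27.

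The small TOM subunits, which hold the channel together, differed among themselves. Tomm5, the TOM gene with the highest FPKM, was at 61.69, 74.13, 90.84, 75.49 and 66.49 FPKM in WT and at 85.74, 120.03, 118.51, 112.04 and 104.57 FPKM in cKO. In cKO 1 it lay inside the WT range and in the other cKO libraries above it, and the log2 fold change was 0.55 (SE 0.12; adjusted p = 0.0031). Tomm7 was at 55.6 ± 6.05 FPKM in WT and 55.3 ± 8.79 FPKM in cKO (log2 fold change -0.01, 95% interval -0.26 to 0.23). Tomm6 had a log2 fold change of 0.21 and was not called (adjusted p = 0.21). Tomm20l, a relative of Tomm20, had a value of 0 in WT 1 to 5 and cKO 1, and was at 0.48, 0.17, 0.37 and 0.17 FPKM in cKO 2 to 5, or about 8.47, 2.80, 5.71 and 2.76 fragments. It was the only member past the fold threshold, passed the filter through the cKO libraries alone, and overlaps exons of Timm9 on the opposite strand, so no fold is given.

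The 3 SAM genes were all higher in the libraries labelled cKO. Samm50, the barrel that inserts other barrel proteins, was at 23.83, 26.62, 28.22, 27.49 and 24.41 FPKM in WT and at 32.73, 36.49, 34.13, 34.82 and 37.64 FPKM in cKO. The replicates were tight and the groups separate, with a log2 fold change of 0.43 (SE 0.067; adjusted p = 0.00050). The metaxins Mtx1 and Mtx2 sit beside Samm50 on the cytosolic side. Mtx2 was at 11.30, 13.44, 15.51, 12.58 and 12.10 FPKM in WT and at 16.71, 20.12, 19.11, 20.58 and 19.59 FPKM in cKO, again without overlap (log2 fold change 0.57, SE 0.094; adjusted p = 0.00072). Mtx1 was at 11.39, 11.37, 12.07, 10.87 and 10.35 FPKM in WT and at 12.60, 13.70, 13.72, 11.83 and 12.65 FPKM in cKO. The lowest cKO library fell inside the WT range, and the log2 fold change of 0.20 (limma adjusted p = 0.038) was not called without WT 1, 2, 4 or 5 or without cKO 2, 3 or 5 (adjusted over all genes in each case).

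Both genes of the MIA pathway were higher. Chchd4, the oxidoreductase that puts disulfide bonds into incoming proteins, was at 7.75, 9.52, 10.34, 9.06 and 8.52 FPKM in WT and at 8.91, 16.21, 14.94, 16.10 and 15.47 FPKM in cKO. Gfer, the sulfhydryl oxidase that re-oxidizes Chchd4 (chr17:24911330-24915553, minus strand), was at 10.39, 12.87, 10.87, 11.76 and 10.64 FPKM in WT and at 12.60, 26.47, 21.59, 19.90 and 24.27 FPKM in cKO. In both genes cKO 1 lay within the WT range and the other 4 cKO libraries lay well above it. The log2 fold changes were 0.63 for Chchd4 (SE 0.16; adjusted p = 0.0084) and 0.85 for Gfer (SE 0.17; adjusted p = 0.0025). Without cKO 1 they were 0.79 and 1.02, and Gfer then passed the fold threshold. In the 7 libraries with low Xist the differences were 0.70 and 0.81 and neither was called (limma adjusted p = 0.080 and 0.072).

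Of the 6 small TIM chaperones tested, 2 were higher and 4 were not called. Timm9, which forms a hexamer with Timm10, had a log2 fold change of 0.41 (SE 0.10; adjusted p = 0.0080), from 10.4 ± 1.05 FPKM in WT to 13.8 ± 1.68 FPKM in cKO. Timm13, the partner of Timm8 proteins, had one of 0.41 (SE 0.12; adjusted p = 0.016), from 39.2 ± 4.79 FPKM to 52.4 ± 7.58 FPKM. In both, cKO 1 was inside the WT range. Timm10 was at 16.76 FPKM in cKO 1 and at 32.13 to 37.54 FPKM in the other cKO libraries, against 18.19 to 28.71 FPKM in WT. It was not called over all libraries (log2 fold change 0.27; adjusted p = 0.32) and was called without cKO 1 (0.48; adjusted p = 0.011).

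Timm8b, the small TIM gene with the highest FPKM, was at 65.24, 74.16, 93.15, 84.19 and 78.94 FPKM in WT and at 76.58, 88.94, 87.21, 89.21 and 84.89 FPKM in cKO. The cKO libraries lay inside the WT range (log2 fold change 0.12; adjusted p = 0.33). The X-linked Timm8a1 was at 12.93, 17.40, 20.67, 14.56 and 11.93 FPKM in WT and at 17.59, 21.45, 21.13, 14.85 and 24.31 FPKM in cKO, and was not called (log2 fold change 0.36; adjusted p = 0.10). Timm10b, a Timm9 and Timm10 relative on the TIM22 complex, was at 5.76 ± 0.786 FPKM in WT and 5.01 ± 1.29 FPKM in cKO (log2 fold change -0.23; adjusted p = 0.34).

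Neither gene of the TIM22 complex was called. Timm22, the channel-forming subunit for carriers, was at 8.54 ± 0.847 FPKM in WT and 8.43 ± 1.04 FPKM in cKO (log2 fold change -0.02, 95% interval -0.25 to 0.21). Timm29, a metazoan subunit that links TIM22 to TOM, was at 29.11, 31.50, 31.02, 30.89 and 29.03 FPKM in WT and at 32.07, 28.04, 30.68, 28.10 and 31.35 FPKM in cKO. Its interval of the log2 fold change, -0.14 to 0.12, was the narrowest of any member.

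**Figure D2:**
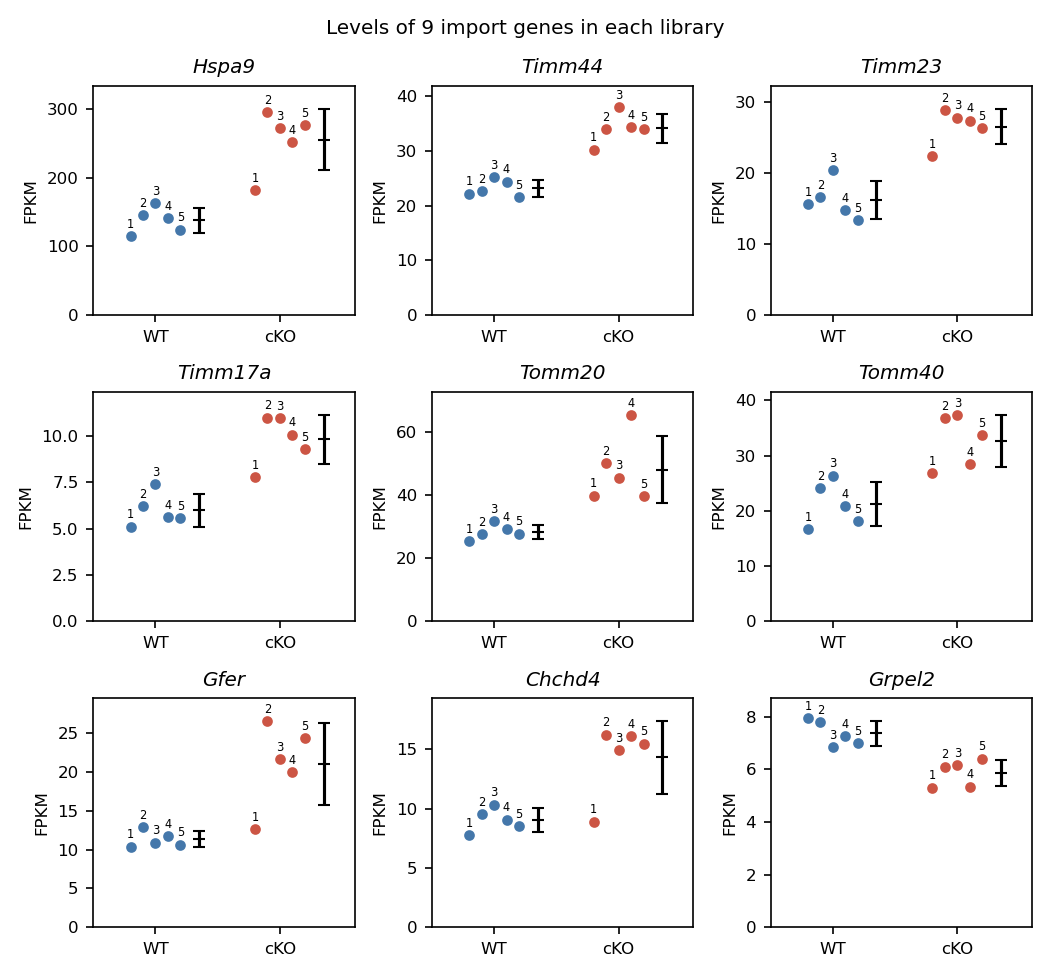
FPKM (y axis, from 0) of 9 import genes in each library, WT in blue and cKO in red, with the replicate number above each point and the mean ± SD of 5 libraries as a black bar. In Gfer and Chchd4 cKO 1 lies with the WT libraries at 12.60 and 8.91 FPKM, while Timm44, Timm23 and Tomm20 separate the groups in all libraries and Grpel2 is lower in cKO.

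In the TIM23 complex 3 of 5 genes were called higher, Timm23, Timm17a and Timm50. Timm23, the presequence channel subunit (chr14:31902119-31924263, minus strand), was at 15.60, 16.61, 20.43, 14.81 and 13.36 FPKM in WT and at 22.33, 28.86, 27.80, 27.37 and 26.31 FPKM in cKO. All cKO libraries were above all WT libraries (log2 fold change 0.72, SE 0.11; adjusted p = 0.00053). Timm17a, one of a pair of alternative partners of Timm23, was at 5.10, 6.20, 7.41, 5.61 and 5.58 FPKM in WT and at 7.78, 10.98, 10.94, 10.07 and 9.27 FPKM in cKO, also without overlap (0.70, SE 0.13; adjusted p = 0.0011). The other partner, the X-linked Timm17b, was at 11.25, 13.04, 12.80, 11.33 and 11.21 FPKM in WT and at 13.06, 13.13, 12.16, 13.15 and 14.40 FPKM in cKO and was not called (0.14; adjusted p = 0.14).

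Timm50, which receives presequences as they leave TOM and had the highest FPKM of the TIM23 genes, was at 22.01, 27.86, 28.46, 25.43 and 22.44 FPKM in WT and at 26.57, 35.93, 37.10, 30.37 and 34.33 FPKM in cKO. The library cKO 1 again fell in the WT range (log2 fold change 0.38, SE 0.11; adjusted p = 0.016). Timm21, which docks TIM23 to TOM, was at 12.94 to 13.83 FPKM in WT and at 8.43 FPKM in cKO 1 and 11.71 to 13.62 FPKM in the other cKO libraries, and was not called (log2 fold change -0.19; adjusted p = 0.21).

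The PAM motor held both the largest called rise among members above 1 FPKM and the only member called lower. Hspa9, the matrix Hsp70 (mortalin) that pulls precursors inward, was at 115.18, 145.08, 163.24, 141.18 and 124.47 FPKM in WT and at 181.98, 295.12, 271.35, 251.41 and 276.13 FPKM in cKO. The groups did not overlap, and the mean rose 1.85-fold from 137.8 ± 18.7 to 255.2 ± 43.8 FPKM (log2 fold change 0.88, SE 0.14; adjusted p = 0.00049). Timm44, the anchor that ties Hspa9 to the TIM23 channel, was at 22.15, 22.65, 25.19, 24.36 and 21.52 FPKM in WT and at 30.19, 33.93, 37.85, 34.31 and 33.89 FPKM in cKO. Its log2 fold change was 0.55 (SE 0.072; adjusted p = 0.00021), the smallest adjusted p of the members.

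Hspa9 works with nucleotide exchange factors and a J-protein pair. Of the exchange factors, Grpel1 was at 15.35, 18.00, 20.04, 17.44 and 18.02 FPKM in WT and at 19.78, 23.27, 22.27, 21.95 and 23.27 FPKM in cKO, a rise of 0.32 on the log2 scale (SE 0.079; adjusted p = 0.0075). Grpel2 went the other way, at 7.93, 7.78, 6.84, 7.27 and 6.99 FPKM in WT and at 5.30, 6.10, 6.17, 5.34 and 6.40 FPKM in cKO. Every cKO library was below every WT library, with a log2 fold change of -0.33 (SE 0.088; adjusted p = 0.011), and under quantile normalization it was -0.10 and not called. Dnajc19, the J-protein that stimulates Hspa9, was at 7.84, 9.19, 6.44, 8.04 and 7.35 FPKM in WT and at 8.85, 9.43, 8.70, 10.39 and 9.34 FPKM in cKO. These ranges overlapped, and the difference of 0.27 (limma adjusted p = 0.048) was not called without WT 1, 3, 4 or 5 or without cKO 2, 3, 4 or 5. Pam16, the J-like protein that restrains Dnajc19, was at 1.85 ± 0.267 FPKM in WT and 1.59 ± 0.214 FPKM in cKO and was not called (limma adjusted p = 0.32).

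Named with the import genes but outside the translocases were Timmdc1, a complex I assembly factor, and Tomm34, a cytosolic co-chaperone. Tomm34 was at 15.78, 17.14, 15.85, 15.66 and 16.47 FPKM in WT and at 12.31, 14.01, 16.89, 13.73 and 12.79 FPKM in cKO, with 4 of 5 cKO libraries below all WT libraries (log2 fold change -0.22; adjusted p = 0.057). Timmdc1 was at 12.1 ± 1.56 FPKM in WT and 14.7 ± 3.32 FPKM in cKO and was not called (limma adjusted p = 0.25).

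The library cKO 1 stood apart within its group. The median deviation of the members from the WT mean was 0.08 on the log2 scale in cKO 1, within the WT range of -0.16 to 0.17, and 0.39 to 0.44 in cKO 2 to 5. It was the lowest cKO library in 27 of the 35 members tested and in 16 of the 19 called higher. For 10 of the 20 called members it lay inside the WT range. The library also had the lowest depth and the highest summed level of 16 neutrophil markers among cKO, 2687 FPKM against 151 to 1144 FPKM in cKO 2 to 5 and 2765 to 3769 FPKM in WT, while its erythroid sum of 7063 FPKM was among the other cKO libraries. The part of depth or neutrophil content in its member levels was not tested. Without cKO 1, 23 members were called higher, including all 19 called with it, and Grpel2 remained lower. Over all genes the shares without it also rose, to 19.3% higher and 30.7% lower.

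**Figure D3:**
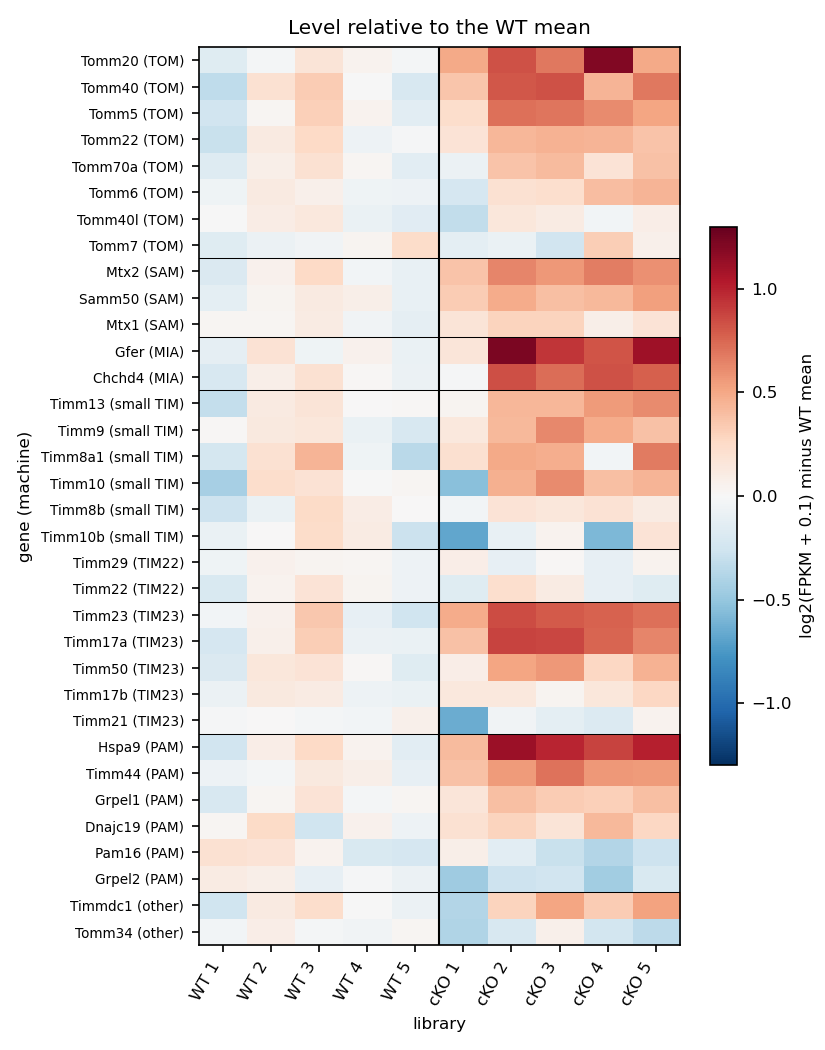
Deviation of each import gene (rows, grouped by machine) from its WT mean on log2(FPKM + 0.1) in each of the 10 libraries (columns), blue for lower and red for higher. Tomm20l and Timm8a2 are not drawn. Most members called higher are red in cKO 2 to 5. Of all 19 called higher, Tomm20l included, 16 have their lowest cKO value in cKO 1, whose median deviation was 0.08.

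Within a library, the ratio of a gene to a related one cancels the scaling of that library, apart from the small constant added to FPKM. Over 6 pairs, each was compared by an exact two-sided permutation test over the 10 libraries, where 0.0079 is the smallest p the design can give. Pairs at that p had an adjusted p of 0.0095 over the 6 pairs. The FPKM ratio of Timm17a to Timm17b was 0.453 to 0.579 in WT and 0.596 to 0.900 in cKO, and that of Tomm40 to Tomm40l was 5.28 to 7.56 in WT and 9.24 to 10.9 in cKO. The ratio of Grpel1 to Grpel2 was 1.94 to 2.93 in WT and 3.61 to 4.11 in cKO, the widest shift on the log2 scale at 0.64. The Mtx1 to Mtx2 ratio fell from 0.778 to 1.01 in WT to 0.575 to 0.754 in cKO, a log2 difference of -0.37. Dnajc19 over its relative Dnajc15, a J-protein of the inner membrane that is no member (4.44 ± 0.399 FPKM in WT and 3.73 ± 0.345 FPKM in cKO), was 1.28 to 2.09 in WT and 2.18 to 3.28 in cKO. These 5 pairs did not overlap between groups and each reached the smallest p of the permutation test, and in them cKO 1 lay on the side of the other cKO libraries. Timm8a1 over Timm8b overlapped, with a log2 difference of 0.25 (exact permutation p = 0.18). With only the 2 WT libraries of low Xist, the 5 log2 differences ran from 0.31 to 0.83 in size in the same directions. Each had an exact permutation adjusted p of 0.11. With 2 WT and 5 cKO libraries this test cannot give a p under 0.05, so it could not pass.

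**Figure D4:**
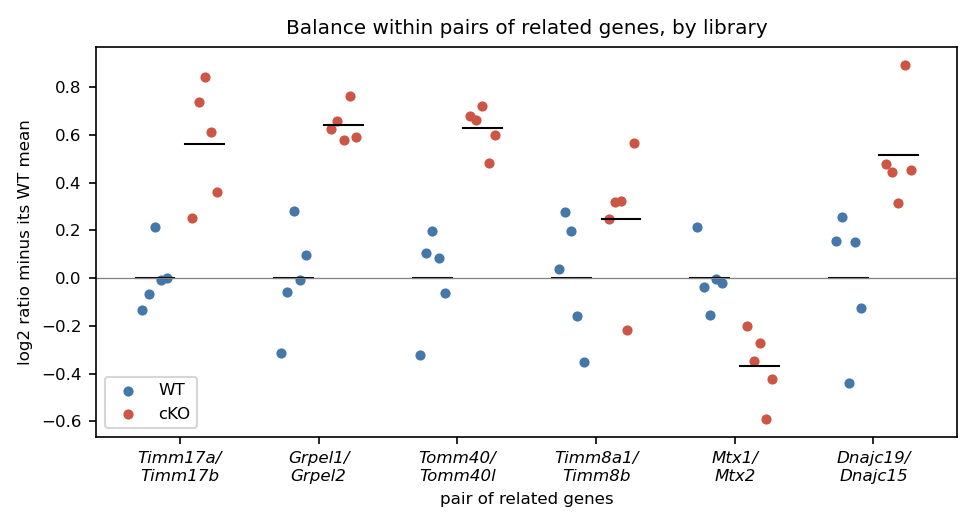
Log2 ratio of FPKM within 6 pairs of related genes, minus the mean WT ratio of that pair (y axis), in each WT (blue) and cKO (red) library, with the group means as black lines. In 5 pairs the red and blue points do not overlap, and Mtx1 over Mtx2 is the pair that falls.

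Promoter windows from 250 bases before to 50 after the annotated start of the canonical transcript were read from GRCm39 for all 36 members and 21627 promoters in all, and searched on both strands for the letters of 4 motifs tied to nuclear control of mitochondrial genes or to stress. The NRF1 motif GCGCANGCG was in 8 members, or 22.2%, against 8.08% of all promoters and 11.6% of the promoters of protein-coding genes tested. The ETS motif CCGGAAGTG, bound by GABPA, was in 6 members, or 16.7%, against 2.15% and 3.31%. The YY1 motif AAGATGGCG was in 2 members, or 5.56%, against 1.34% and 2.12%, and the CARE element TGATGNAA, read by ATF4 and its relatives, was in 1, or 2.78%, between the 3.85% of all promoters and the 2.52% of those of genes tested. Among the 19 members called higher, 3 held the NRF1 letters and 2 the ETS letters, and among the 17 others 5 and 4. The matches are a description of letters and not of binding. Members not called higher held the letters more often, at 29.4% against 15.8% for NRF1 and 23.5% against 10.5% for ETS. A link between motif and rise was not tested. Below are the stretches for a member called higher of the MIA, TIM23 and SAM groups each, picked as examples. Capitals mark the motif, on either strand, and the sequence is given 5′ to 3′ along the gene.
Chchd4, NRF1, chr6:91450582-91450610, GRCm39, minus strand: ttcactggtgCGCGTGCGCgctgcaagat
Timm23, ETS, chr14:31923879-31923907, GRCm39, minus strand: tcgcgcttccCACTTCCGGgccgcacaca
Mtx2, ETS, chr2:74656121-74656146, GRCm39, plus strand: ggcggagcagCCGGAAGTGccggcgc
Chchd4 and Timm23 hold the letters on the opposite strand, so that the capitals read as the reverse complement. The match starts 72 bases upstream of the start in Chchd4, 42 bases in Timm23 and 16 bases in Mtx2, and Chchd4 and Mtx2 each hold a second match in the window. In the annotation, the Chchd4 stretch lies in an alternative first exon of Tmem43 and the Timm23 stretch meets first exons of Parg, both on the opposite strand.

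A list of 66 partner genes, grouped by what happens to a precursor before or after it crosses the membranes, was described beside the members. Of these, 31 were higher in the libraries labelled cKO and 2 lower, against 16.7% and 28.3% of all genes, and the median difference was 0.27 on the log2 scale. With low-Xist libraries alone, 16 were higher, against 8.81% of all genes. Among 6 matrix folding genes 3 were higher, led by Hspe1, the co-chaperonin of Hsp60, at 102.18, 157.92, 167.19, 135.03 and 133.02 FPKM in WT and 176.86, 323.73, 281.23, 339.28 and 287.87 FPKM in cKO. Hspe1 did not overlap between groups (2.03-fold in the means; limma adjusted p = 0.0012), and the chaperonin Hspd1 did (0.52; limma adjusted p = 0.018). Both receive proteins pulled in by Hspa9.

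Of the 10 mitochondrial proteases and quality control genes 6 were higher and 1 lower. Lonp1, a matrix protease, was at 29.79 to 37.33 FPKM in WT and 49.31 to 79.69 FPKM in cKO (log2 fold change 1.06; adjusted p = 0.00013). Afg3l2, a subunit of the m-AAA protease of the inner membrane, rose by 0.73 and Clpp, a matrix protease subunit, by 0.68 on the log2 scale. Spg7, which joins Afg3l2 in that protease, was the gene called lower and was named after its values were seen: it was at 13.27 to 15.68 FPKM in WT and 9.71 to 10.78 FPKM in cKO (log2 fold change -0.46; adjusted p = 0.00034).

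Precursor processing, insertion and tethering genes gave similar counts. Of 6 presequence processing genes 3 were higher, among them Pmpca, a subunit of the peptidase that removes presequences, by 0.47 on the log2 scale, and Immp2l and Immp1l of the inner membrane peptidase by 0.95 and 0.37. Immp2l was low, at 0.81 to 1.38 FPKM in WT and 1.10 to 3.33 FPKM in cKO (limma adjusted p = 0.023). Its groups overlapped, as did those of Immp1l, while those of Pmpca did not. Of 5 inner membrane insertion and motor relatives 3 were higher: Cox18 (0.72), Romo1 (0.46) and the insertase Oxa1l (0.18). Of 3 outer membrane insertion genes, only the insertase Mtch2 was called (0.44). Of 8 genes of the MICOS complex and its bridge to SAM, 4 were higher, led by Chchd3 (0.54), Micos13 (0.37) and Micos10 (0.36).

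Cytosolic chaperones that hold precursors were called higher in 4 of 9 genes, with a list median of 0.02. Hsp90aa1 (0.41), Dnaja2 (0.39) and Btf3 (0.39) had the largest log2 fold changes. The last list was 19 twin CX9C proteins, the typical cargo of Chchd4 and Gfer. Of these 7 were higher, 1 was lower and 11 were not called, with a median of 0.19. Ndufs5, Ndufb7, Ndufa8, Uqcrh and Cox6b1 are also in the respiratory list below. Chchd10 rose by 0.78 and Chchd1, a mitochondrial ribosome subunit, by 0.49. Coa4, a factor for cytochrome oxidase assembly, was at 2.60, 3.28, 3.37, 2.91 and 4.10 FPKM in WT and at 0.80, 1.37, 2.44, 1.58 and 1.94 FPKM in cKO, a separation without overlap in the direction opposite to both import genes of its route (log2 fold change -1.02, SE 0.26; adjusted p = 0.0077).

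Other mitochondrial gene lists, most of whose proteins use these routes, were set beside the members with no test of a difference. Over all genes tested, 16.7% were higher and 28.3% lower. Of 83 nuclear respiratory subunits tested 42 were higher and 2 lower, with a median of 0.27 on the log2 scale, and of 78 mitochondrial ribosomal proteins 39 were higher and 3 lower, with a median of 0.28. Their medians were close to the 0.32 of the import members. Carriers were chosen by the Slc25a symbol alone, and not every gene of that family need be a substrate of the TIM22 route. Of 42 carriers tested, 14 were higher and 6 lower, with a median of 0.14. Their spread was wider, from Slc25a33 at 2.08 to Slc25a23 at -2.49 and Slc25a27 at -2.48. The 2 lowest were genes of low level. Slc25a23 was at 2.82 to 5.19 FPKM in WT and 0.30 to 0.76 FPKM in cKO, and Slc25a27 at 1.05 to 2.97 FPKM and 0.10 to 0.49 FPKM. Slc25a33, a pyrimidine nucleotide carrier, averaged 2.83 FPKM in WT and 12.5 FPKM in cKO, while Timm22 and Timm29 stayed at the levels given above.

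**Figure D5:**
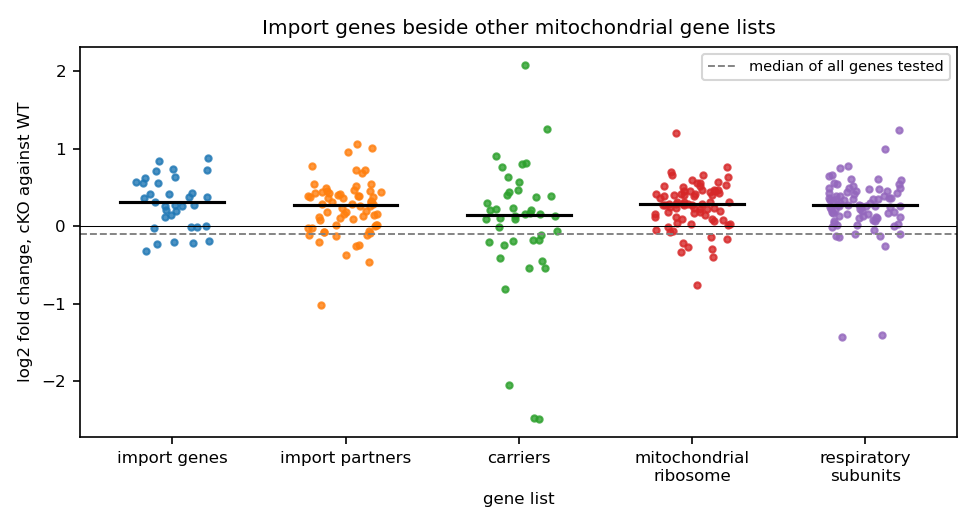
Log2 fold change (y axis, cKO against WT) of each tested gene in the import list and in 4 other mitochondrial lists, with list medians as black lines and the median of all genes tested, -0.11, as a dashed line. Tomm20l is not drawn but counts in the median of the import list. Medians of 4 lists lie between 0.27 and 0.32, and the carriers, at 0.14, spread most widely.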

How the data were processed

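Lin- bone marrow cells of Dhx9f/f (WT) and Dhx9f/f;MX1 (cKO) mice were isolated with a lineage depletion kit, and total RNA was sequenced, 5 libraries per genotype. The deposited FPKM values, 1 per gene and library, were made by the authors after alignment to GRCm39. The submitters' processing notes list cutadapt 1.9.1, HISAT2 2.0.1 and HTSeq 0.6.1. The strand setting and the gene length behind FPKM are not given in the sources used here. Levels of different genes are therefore only roughly comparable. Exons of 25 of the 36 members overlap a gene on the opposite strand, and reads of such partners may not be told apart. Exons of 6 members (Tomm20, Tomm6, Mtx2, Samm50, Timm10b and Timm23) overlap a gene on the same strand, where a strand setting cannot separate the reads.

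FPKM are not counts, so log2(FPKM + 0.1) of genes averaging 0.1 FPKM or more was tested with limma 3.58.1 (R 4.3.3, mean-variance trend) over all genes, with Benjamini-Hochberg adjustment. Fold changes on this scale understate changes of low genes. Depth was recovered from low values, 96.1% to 96.4% of which were within 0.2 of whole fragments. Paralog ratios were tested by exact permutation (scipy 1.17.1). Scripts were tested on simulated data. No replicate pair was alike within sampling noise. Exons, starts and promoters came from GENCODE and GRCm39. Members and lists were chosen with earlier results of these data known. Values in every library are given for members past adjusted p and fold 2, the largest non-overlapping rises and falls, both genes of each pair and the most abundant member of each machine, with Chchd4, Timm44 and others shown in the plots added. In partner lists, up to 3 called genes with the largest fold change were named. Alternatives changed the pseudocount, filter, scaling, trend, replicate block, libraries with high Xist and single libraries, 21 in all. A planned search for cysteine motifs in the proteins was not run.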

Additional observations from a re-analysis of the deposited data

Results flagged for a closer look

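Over 81 groups of 5 values tested with Dixon's criterion, 3 had 1 library far from the other 4, where chance alone marks about 1 group in 20, or 4.05 here. Chchd4 in cKO 1 was at 8.91 FPKM against 14.94 to 16.21 FPKM in cKO 2 to 5. Timm10 in cKO 1 was at 16.76 FPKM against 32.13 to 37.54 FPKM. The log2 ratio of Dnajc19 to Dnajc15 was 1.68 in cKO 4 against 1.10 to 1.27 in the other cKO libraries.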

How the results depend on the processing

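Of the 19 members called higher, 11 were called higher under all 21 alternatives (Tomm20, Tomm22, Tomm40, Tomm5, Mtx2, Samm50, Timm17a, Timm23, Grpel1, Hspa9 and Timm44). With the 7 libraries of low Xist, 11 members were higher, as were 16 partner genes with 1 lower, and all genes gave 1651 higher and 3181 lower, with 541 higher at fold 2. The other 8 members lost the call there. As every library with high Xist is WT, Xist and part of the WT group cannot be told apart. With a covariate for Xist, 2035 genes were higher and 1 partner gene lower.

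At fold 2, all genes gave 356 higher and 1486 lower with a pseudocount of 1, 462 and 1827 with the filter at 1 FPKM, and 1581 higher with quantile normalization. Members lower numbered 2 with the mean of 1 FPKM and with equal sums, where Tomm34 joined, and 0 with quantile normalization. Members past fold 2 numbered 0 with the pseudocount of 1, the mean of 1 FPKM, the low-Xist libraries and the covariate. Partners past fold 2 were 1 higher with the pseudocount of 1, equal sums and quantile normalization, and 0 lower with the pseudocount of 1, median-ratio scaling, quantile normalization, the low-Xist libraries and the covariate. Quantile normalization moved the median of all genes from -0.11 to 0.10 and that of the members to 0.35, and median-ratio scaling moved them to -0.01 and 0.42. The cause of these moves was not tested.

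Reversals touched members that were not called. With median-ratio scaling the log2 fold changes were 0.101 for Tomm40l, 0.0927 for Tomm7, 0.0835 for Timm22 and 0.0924 for Timm29. Under quantile normalization they were 0.42 for Tomm40l (limma adjusted p = 0.027), 0.0609 for Timm10b, 0.16 for Timm22 and 0.30 for Pam16. With low Xist or the covariate they were 0.10 for Tomm7 and 0.0537 for Timm22.

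Leaving out 1 library at a time gave 17 to 23 members higher, 1 to 2 lower, and 1 to 2 past fold 2. Partners ranged from 26 to 37 higher, with 1 to 3 higher and 0 to 1 lower at fold 2. Log2 fold changes ran from -0.0409 to 0.0767 for Tomm40l, -0.0981 to 0.0464 for Tomm7, -0.0810 to 0.0238 for Timm22 and -0.0379 to 0.0104 for Timm29. The Timm8a1 to Timm8b difference ran from 0.16 to 0.36, and without cKO 4 it passed (exact permutation adjusted p = 0.032).

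Deviations of same-numbered libraries had correlations of -0.01 to 0.12, and those of differently numbered ones -0.10 to 0.07. The highest were WT 1 with cKO 1, at 0.12, and WT 5 with cKO 5, at 0.09. As all were small, the shared number was not taken as a pairing in the main fit. With a replicate block 20 members were higher and 1 lower, of 3111 and 5069 genes. For the ratios a replicate block left the differences at 0.56 for Timm17a, 0.64 for Grpel1, 0.63 for Tomm40, -0.37 for Mtx1 and 0.52 for Dnajc19. Each had a sign-flip adjusted p of 0.075, and 5 sign flips cannot give a p under 0.05. With low Xist the 5 differences were 0.66, 0.83, 0.74, -0.46 and 0.31 (exact permutation adjusted p = 0.11). There too the number of libraries did not allow a p under 0.05.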
